A study of Mus musculus with 9 samples.

Results

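The genes described here are the splicing regulators of 7 families: the SR proteins (Srsf genes), TRA2, hnRNP, PTBP, CELF, RBFOX and KHDRBS. A gene was included when its symbol was Srsf followed by a number, or began with Hnrnp, Celf, Rbfox, Khdrbs, Tra2 or Ptbp. This gave 48 of the 22322 genes in the deposited tables: 20 hnRNP genes, 11 SR protein genes, 6 CELF genes, 3 each of PTBP, RBFOX and KHDRBS, and 2 TRA2 genes. The rule itself reads gene names only.

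These proteins decide which exons and splice sites of a pre-mRNA are used. SR proteins and their relatives Tra2a and Tra2b bind exonic enhancers and recruit the spliceosome, whereas many hnRNPs and the polypyrimidine tract binding proteins (PTBP) bind silencers and block exon inclusion. CELF, RBFOX and KHDRBS proteins act on smaller sets of exons, many of them specific to brain or muscle. Many SR protein and hnRNP genes also carry a poison exon or a retained intron that sends part of their own transcripts to nonsense-mediated decay, so that the protein can limit its own messenger RNA.

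Transcript levels came from RNA-seq of total RNA of R1 cells, a mouse embryonic stem cell line. All cells had been grown for 6 days in suspension without LIF, the cytokine that sustains pluripotency, so that they aggregated into embryoid bodies. There were 3 groups of 3 libraries: cells with a control hairpin (sh-ctrl, genotype WT), cells with a hairpin against Pfkp (sh-Pfkp, Pfkp knockdown) and cells with a hairpin against Lin41 (sh-Lin41, Lin41 knockdown). Pfkp is the platelet-type phosphofructokinase of glycolysis, and Lin41 is the RNA-binding protein of the gene Trim71. Per the series title, Pfkp acts on Lin41 as its protein kinase. The labels mention no rescue and do not say how many hairpins were used per target, so an effect of a hairpin and an effect of its target cannot be told apart. Whether replicate libraries are separate cultures is not stated, so the p-values rest on a spread between libraries that may be technical only. In bulk RNA, fewer cells of a type and less RNA per cell also cannot be told apart.

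Total counts were 15495194 to 20607683 per library. Levels are given as CPM, read counts scaled to a common library size that was adjusted by TMM (trimmed mean of M-values). Each target was lower in its own knockdown: Pfkp had a mean of 247 CPM in sh-ctrl, 103 in sh-Pfkp and 227 in sh-Lin41, and Trim71 had 269, 352 and 160 CPM. All 10 pluripotency markers examined had at least 10 CPM in sh-ctrl, and their summed level was 5187 to 5268 CPM there, 4726 to 4809 in sh-Pfkp and 6066 to 6096 in sh-Lin41, with 3 markers higher and 7 lower in sh-Pfkp and 6 higher and 2 lower in sh-Lin41. The 9 fibroblast or stroma markers summed to 5.84 to 6.39 CPM in sh-ctrl, 27.2 to 32.2 in sh-Pfkp and 5.60 to 7.10 in sh-Lin41, where Dcn, Lum and Postn were at 0 as in sh-ctrl, and of the 7 tested 6 were higher and 1 lower in sh-Pfkp. These numbers of markers higher or lower are calls by the test described below. It called 28.3% of all genes higher and 28.3% lower in sh-Pfkp, and 26.9% and 27.3% in sh-Lin41. The 13 mitochondrial genes held 5.15% to 5.32% of all counts in sh-ctrl, 6.65% to 6.86% in sh-Pfkp and 7.19% to 7.43% in sh-Lin41. The part of these differences in the results below was not tested.

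Splicing regulators were abundant. In FPKM, which corrects for transcript length and so allows genes to be compared, the median of the 43 members that passed the filter on low counts was 96.4 in sh-ctrl, against 8.44 for all 13158 genes that passed. Of the 48 genes, 21 had at least 100 FPKM and 39 at least 10 FPKM. The highest was Hnrnpa3, a shuttling hnRNP of the A/B type, with 1077 ± 3.25 FPKM (SD, n = 3). Hnrnpa1 (782 ± 10.7) and Hnrnpa2b1 (774 ± 8.78), which bind silencer elements, followed with overlapping libraries, and then Hnrnpf (719 ± 5.80), Hnrnpk (655 ± 8.41) and Hnrnpab (639 ± 3.95). The leading gene of each other family was Ptbp1 (316 ± 8.91 FPKM), Srsf2 (299 ± 2.62), Tra2b (140 ± 2.66), Celf1 (77.4 ± 1.80), Khdrbs1 (77.0 ± 1.16) and Rbfox2 (33.9 ± 2.06).

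**Figure D1:**
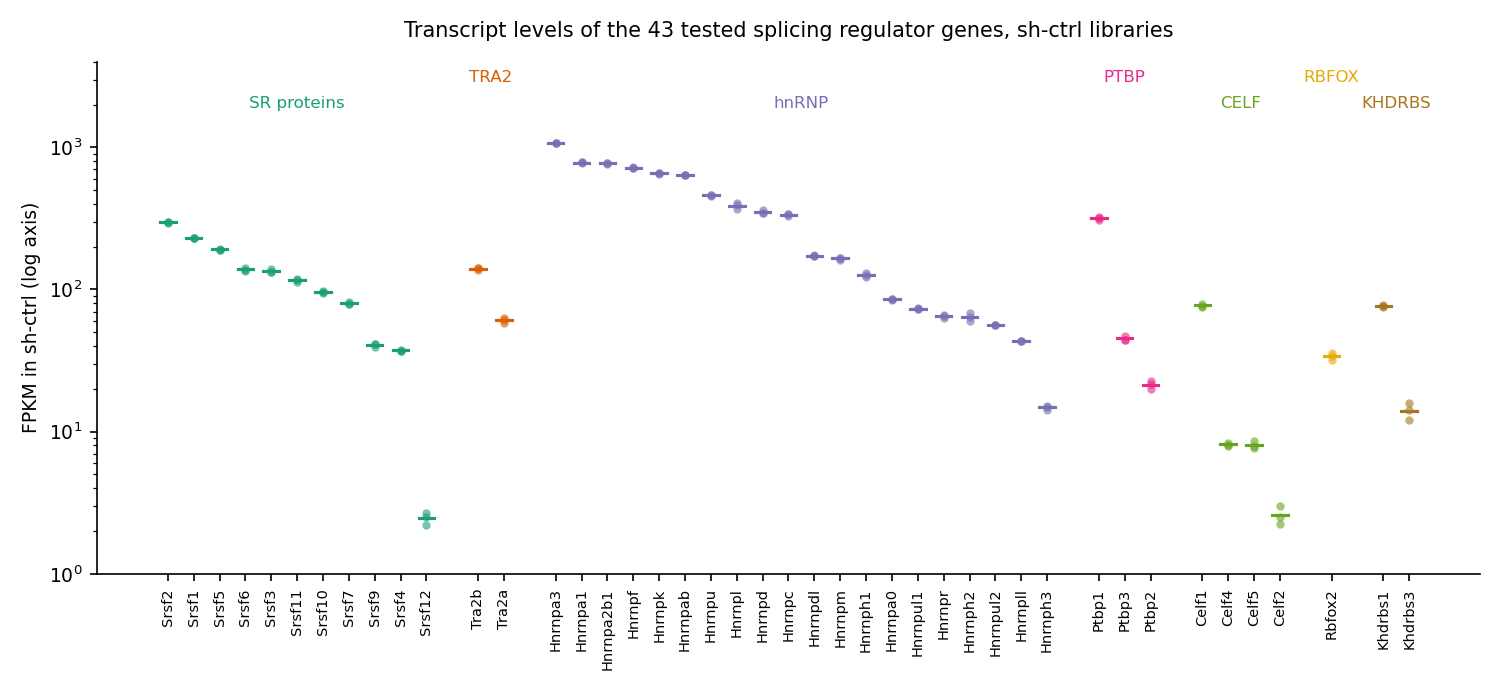
FPKM in the 3 sh-ctrl libraries (points) and their mean (bar) for the 43 tested members, on a log axis and grouped by family. The hnRNP genes reach 1077 FPKM (Hnrnpa3), whereas the means of Srsf12 and Celf2 are 2.46 and 2.58 FPKM.

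The 5 members that did not pass the filter are mainly known from neurons. Celf3 had 3, 4 and 3 counts in sh-ctrl, 1, 0 and 0 in sh-Pfkp and 1, 2 and 0 in sh-Lin41. Celf6 had 4, 3 and 1 counts, then 1, 0 and 0, then 2, 1 and 3. Khdrbs2 had at most 5 counts in any library, and Rbfox1 at most 1. Rbfox3, whose protein is the neuronal nuclear antigen NeuN, had 8, 9 and 13 counts in sh-ctrl, 5, 3 and 3 in sh-Pfkp and 1, 4 and 8 in sh-Lin41. At this depth these counts do not support a comparison between groups.

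Small differences were common among all genes, so each count of members is read against the share of all genes called. That share was not matched for level: the median in sh-ctrl was 96.4 FPKM for the members and 8.44 for all genes. Precision is lower for genes with few counts. The part of level in the numbers of members called, or without overlap, was not tested. A gene was called at a Benjamini-Hochberg adjusted p under 0.05 in edgeR's quasi-likelihood test over all 13158 genes. In sh-Pfkp against sh-ctrl, 19 of the 43 members were higher, against 28.3% of all genes, and 11 were lower, against 28.3% of all genes, so 30 were called in either direction, against 56.6%. Their median log2 fold change was 0.030, against -0.005 for all genes. This balance depended on the scaling: with total counts only it was 13 higher and 13 lower (median -0.018), with upper-quartile scaling 14 and 12 (median -0.010), and with limma on FPKM 12 and 12 (median -0.014). In sh-Lin41 against sh-ctrl, 9 members were higher, against 26.9% of all genes, and 21 lower, against 27.3% of all genes, or 30 in either direction, against 54.3%, with a median of -0.090 against 0.004. Directly between the knockdowns, 29 members were higher on the sh-Pfkp side, against 27.4% of all genes, and 6 were lower, against 27.8%, or 35 in either direction, against 55.1%, with a median of 0.130 against -0.013. With total counts only, 26 members were higher and 8 lower between the knockdowns, and with limma on FPKM 23 and 6. The 2 comparisons with sh-ctrl share its 3 libraries.

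Most of these differences were small. Members called and at least 1.5-fold higher numbered 4 in sh-Pfkp (5.13% of all genes): Srsf7, Tra2a, Srsf3 and Hnrnph1. Those at least 1.5-fold lower there were Celf5 and Celf2 (9.95% of all genes). In sh-Lin41 they were Srsf7 and Srsf3, which were higher (5.83% of all genes), and Srsf12, which was lower (5.66%). Between the knockdowns, Ptbp2, Hnrnph1 and Srsf12 were at least 1.5-fold higher in sh-Pfkp (3.94% of all genes) and Celf5 was lower (8.46%). The CPM ranges of the groups did not overlap for 32 of 43 members in sh-Pfkp against sh-ctrl (61% of all genes), 32 in sh-Lin41 against sh-ctrl (59%) and 34 between the knockdowns (59.8%).

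**Figure D2:**
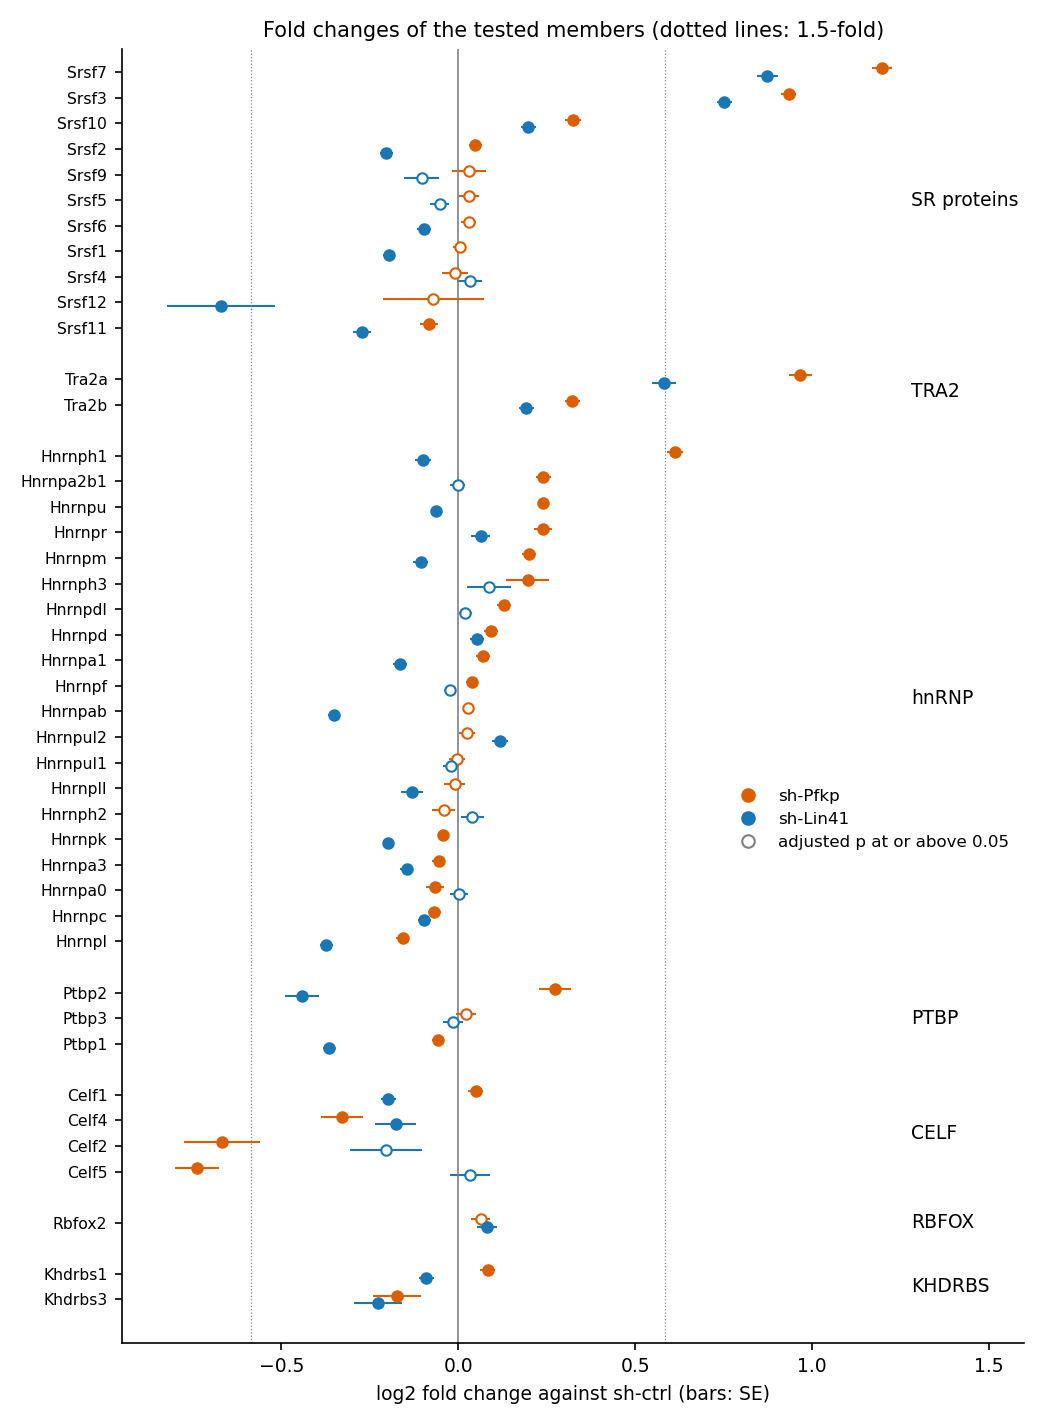
Log2 fold change of each tested member against sh-ctrl in sh-Pfkp (orange) and sh-Lin41 (blue), with bars of 1 SE. Open circles had an adjusted p of 0.05 or more, dotted lines mark 1.5-fold, and Srsf7, Srsf3 and Tra2a lie farthest to the right in both knockdowns.

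In sh-Pfkp the largest changes against sh-ctrl were in Srsf7, Tra2a and Srsf3, which were higher in sh-Lin41 as well, with sh-Pfkp the highest group. Srsf3, a small SR protein that also couples splicing to mRNA export, had 295, 308 and 294 CPM in sh-ctrl, 561, 581 and 570.0 in sh-Pfkp and 497, 512 and 499.7 in sh-Lin41. The 3 groups did not overlap, and sh-ctrl was the lowest. Its log2 fold change was 0.93 (SE 0.0217, adjusted p = 3.53e-26) in sh-Pfkp and 0.75 (SE 0.0217, adjusted p = 2.28e-23) in sh-Lin41, with edgeR and Benjamini-Hochberg adjustment, and the knockdowns differed by 0.18 (SE 0.0205, adjusted p = 5.02e-09). Srsf7, a relative of Srsf3 that also acts in export and in the choice of polyadenylation sites, had 119.6, 117 and 119.6 CPM in sh-ctrl, 260.4, 282 and 275 in sh-Pfkp and 223, 212 and 218 in sh-Lin41. Again every sh-Pfkp library lay above every sh-Lin41 library, and these above every sh-ctrl library. The log2 fold changes of Srsf7 by edgeR were 1.20 (SE 0.0294, adjusted p = 1.43e-25) and 0.87 (SE 0.0299, adjusted p = 1.4e-21), with a difference between knockdowns of 0.32 (SE 0.0268, adjusted p = 5.53e-12). Limits of 0.05 on the FDR and 1 on the absolute log2 ratio were applied to the authors' deposited values. Srsf7 in sh-Pfkp was the only member past both, with a log2 ratio of 1.16.

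Tra2a, an activator of exons with purine-rich enhancers, had 118, 113 and 107 CPM in sh-ctrl, 215, 230.0 and 215 in sh-Pfkp and 166, 174 and 166 in sh-Lin41. The order of the groups was that of Srsf3 and Srsf7, without overlap. Its log2 fold changes by edgeR were 0.97 (SE 0.0329, adjusted p = 1.1e-21) in sh-Pfkp and 0.58 (SE 0.0337, adjusted p = 8.61e-16) in sh-Lin41, the second just under 1.5-fold, and the knockdowns differed by 0.38 (SE 0.0306, adjusted p = 2.25e-12). The paralogue Tra2b, the more abundant of the pair, had 292, 294 and 298 CPM in sh-ctrl, 365, 373 and 367 in sh-Pfkp and 332, 340.5 and 336 in sh-Lin41. It kept the same order of groups with a smaller difference, 0.32 (SE 0.0211, adjusted p = 2.23e-14) and 0.19 (SE 0.0212, adjusted p = 3.36e-09), and 0.13 (SE 0.0206, adjusted p = 2.6e-06) between the knockdowns. Summed over the pair, TRA2 transcripts stood at 407 ± 1.99 CPM in sh-ctrl, 588 ± 13.2 in sh-Pfkp and 505 ± 8.38 in sh-Lin41 (SD, n = 3).

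Srsf3, Srsf7 and Tra2a had the largest changes in sh-Pfkp and were picked after their values were seen. Tra2b and Srsf10 had the same order of groups. The 250 bases before the transcription start of Srsf3, Srsf7 and Tra2a are shown, from RefSeq on GRCm38.p6 and written 5′ to 3′ on the gene's strand. These windows lie at chr17:29032410-29032659 on the plus strand (Srsf3), chr17:80207306-80207555 on the minus strand (Srsf7) and chr6:49264053-49264302 on the minus strand (Tra2a). Capitals mark matches on either strand to 6 motifs: the CCAAT box, the GC box of Sp factors (GGGCGG), the TATA box (TATAAA), the core of ETS factor sites (CCGGAA), the full cyclic AMP response element (TGACGTCA) and the E-box of Myc-type factors (CACGTG). No match overlapped another in these windows.
Srsf3: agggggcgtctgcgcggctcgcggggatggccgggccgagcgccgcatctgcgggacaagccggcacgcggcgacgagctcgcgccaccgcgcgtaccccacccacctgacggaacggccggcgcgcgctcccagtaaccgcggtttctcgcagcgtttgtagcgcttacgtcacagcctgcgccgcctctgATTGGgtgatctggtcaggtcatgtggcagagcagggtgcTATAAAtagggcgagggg
Srsf7: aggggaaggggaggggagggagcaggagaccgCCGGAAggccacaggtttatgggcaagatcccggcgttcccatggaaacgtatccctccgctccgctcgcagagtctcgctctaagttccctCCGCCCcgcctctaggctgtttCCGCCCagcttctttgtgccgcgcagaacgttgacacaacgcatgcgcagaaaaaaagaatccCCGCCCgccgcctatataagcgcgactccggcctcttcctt
Tra2a: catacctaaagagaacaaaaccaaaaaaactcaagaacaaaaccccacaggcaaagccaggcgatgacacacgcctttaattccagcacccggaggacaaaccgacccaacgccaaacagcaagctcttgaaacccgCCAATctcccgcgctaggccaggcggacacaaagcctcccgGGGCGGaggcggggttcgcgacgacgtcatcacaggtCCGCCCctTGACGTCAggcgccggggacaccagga

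The 3 windows shared no exact match to the motifs searched. Near variants of a motif, such as tatataag in the Srsf7 window, were not counted. Srsf3 held 1 CCAAT box, read as its reverse complement, and 1 TATA box. Srsf7 held 3 GC boxes and 1 ETS core, and Tra2a held 1 CCAAT box, 2 GC boxes and 1 cyclic AMP response element. Some genes have several RefSeq promoters, and only the first listed for each gene was counted in the following shares. Among the 36 tested members with a RefSeq promoter, 17 held a CCAAT box, against 37.3% of the promoters of 10409 tested genes, and 28 a GC box, against 60.5%. An ETS core was in 12 (22.2% of all), a TATA box in 4 (6.16%), an E-box in 3 (8.52%) and the response element in 1 (2.69%). A match describes the letters only, and no binding was measured.

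**Figure D3:**
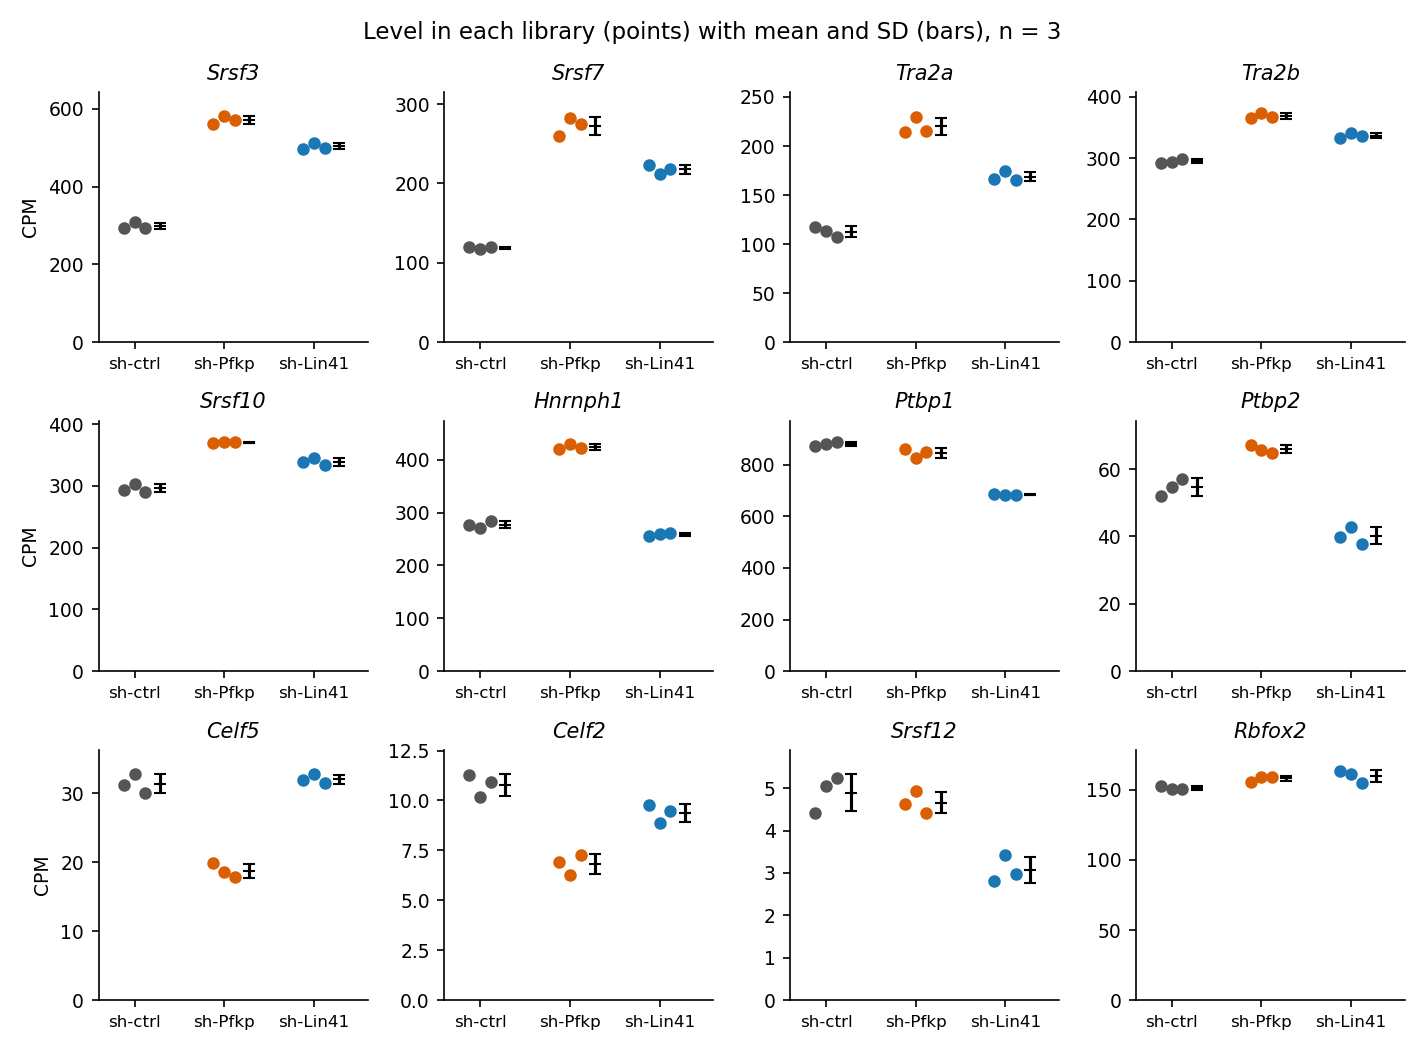
CPM in each library (points) with the mean and SD of each group (bars, n = 3) for 12 members, each on its own axis from 0. Srsf3, Srsf7, Tra2a, Tra2b and Srsf10 step down from sh-Pfkp to sh-Lin41 to sh-ctrl, whereas Ptbp1 and Srsf12 are lowest in sh-Lin41 and Celf5 and Celf2 are lowest in sh-Pfkp.

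The other SR protein genes differed less from control. Srsf10, which becomes a splicing repressor when dephosphorylated, was the other member of the family called higher in both knockdowns, at 0.32 (SE 0.0218, adjusted p = 4.57e-14) in sh-Pfkp and 0.20 (SE 0.0219, adjusted p = 3.56e-09) in sh-Lin41. Srsf2, the most abundant of the family, had 553, 552 and 543 CPM in sh-ctrl, 564, 572 and 569 in sh-Pfkp and 476, 478 and 477 in sh-Lin41. It was lowest in sh-Lin41, where the groups did not overlap, at -0.20 (SE 0.0181, adjusted p = 2.96e-11), and differed by 0.05 (SE 0.018, adjusted p = 0.0223) in sh-Pfkp, a call that was lost with total counts only (adjusted p = 0.986), with upper-quartile scaling (adjusted p = 0.693), with limma on FPKM (adjusted p = 0.256) and without sh-ctrl replicate 3 (adjusted p = 0.0665). Srsf1, the prototype of the family, was also lower in sh-Lin41 (-0.20, SE 0.0178, adjusted p = 5.13e-11), as were Srsf11 (-0.27, SE 0.0258, adjusted p = 1.38e-10) and Srsf6 (-0.10, SE 0.0204, adjusted p = 0.000153). Srsf12, a little studied member at low level, had 4.41, 5.05 and 5.24 CPM in sh-ctrl, 4.63, 4.92 and 4.42 in sh-Pfkp and 2.81, 3.42 and 2.97 in sh-Lin41. Its sh-Lin41 libraries lay below all others, with edgeR log2 fold changes of -0.67 (SE 0.152, adjusted p = 0.000401) against sh-ctrl and 0.60 (SE 0.152, adjusted p = 0.00117) for sh-Pfkp against sh-Lin41, and -0.07 (SE 0.144, adjusted p = 0.701) in sh-Pfkp.

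By count, sh-Pfkp had 4 of the 11 SR protein genes higher and 1 lower, against 28.3% of all genes each way. With total counts only these were 3 and 2. In sh-Lin41, 3 were higher and 5 lower, against 26.9% and 27.3% of all genes. Between the knockdowns 10 were higher in sh-Pfkp and 0 lower, against 27.4% and 27.8% of all genes, or 8 and 1 with total counts only. Srsf4, whose exons overlap those of a gene on the opposite strand over 43% of their bases in the GENCODE annotation, was not called in any of the 3 comparisons, with log2 fold changes of -0.01, 0.03 and -0.04. The summed level of the family was 3097 ± 24.3 CPM in sh-ctrl, 3616 ± 51.7 in sh-Pfkp and 3189 ± 22.7 in sh-Lin41 (SD, n = 3). Within these sums, the mean level of Srsf3 was 299 CPM in sh-ctrl and 570.4 in sh-Pfkp, and that of Srsf7 was 119 and 272 CPM.

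Among the hnRNP genes the largest difference was in Hnrnph1, whose protein binds runs of G and can enhance or silence an exon. It had 276, 271 and 284 CPM in sh-ctrl, 419.7, 429 and 422 in sh-Pfkp and 256, 259 and 260.4 in sh-Lin41. The sh-Pfkp libraries lay above all others and the sh-Lin41 libraries just below sh-ctrl. The edgeR log2 fold changes were 0.61 (SE 0.0219, adjusted p = 3.85e-21) in sh-Pfkp, -0.10 (SE 0.0227, adjusted p = 0.000375) in sh-Lin41 and 0.71 (SE 0.0218, adjusted p = 9.43e-23) between the knockdowns. Its paralogues did not share this size: Hnrnph2 stood at -0.04 (SE 0.0324, adjusted p = 0.295) and Hnrnpf at 0.04 (SE 0.0162, adjusted p = 0.0396) in sh-Pfkp, the latter turning to -0.0087 with total counts only. Hnrnph3 stood at 0.20 (SE 0.0615, adjusted p = 0.0074) there, a call lost when sh-Pfkp replicate 3 was left out (adjusted p = 0.0599) and with limma on FPKM (adjusted p = 0.0735).

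Hnrnpa3, the most abundant member, had 1844, 1853 and 1837 CPM in sh-ctrl, 1724, 1833 and 1769 in sh-Pfkp and 1644, 1710.2 and 1647 in sh-Lin41. It was lower in both knockdowns, by little in sh-Pfkp (-0.06, SE 0.0177, adjusted p = 0.00882, and adjusted p = 0.172 without sh-Pfkp replicate 1) and by more in sh-Lin41 (-0.15, SE 0.0177, adjusted p = 2.4e-08). In sh-Pfkp the next largest rises among the hnRNP genes were in Hnrnpu, the nuclear scaffold factor, at 0.24 (SE 0.0145, adjusted p = 2.79e-15), Hnrnpa2b1, a reader of RNA sorting signals, at 0.24 (SE 0.0213, adjusted p = 2.78e-11), Hnrnpr at 0.24 (SE 0.0262, adjusted p = 3.01e-09) and Hnrnpm at 0.20 (SE 0.0207, adjusted p = 9.41e-10). In sh-Lin41 the largest falls were in Hnrnpl, which binds CA repeats, at -0.37 (SE 0.019, adjusted p = 3.36e-17), Hnrnpab at -0.35 (SE 0.0162, adjusted p = 2.46e-18) and Hnrnpk, a binder of C-rich RNA, at -0.20 (SE 0.0152, adjusted p = 9.04e-13). Hnrnpl was lower in sh-Pfkp too, at -0.16 (SE 0.0188, adjusted p = 1.9e-08). These genes were picked as examples after their values were seen.

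By count, sh-Pfkp had 10 of 20 hnRNP genes higher and 5 lower, against 28.3% of all genes each way. With total counts only these were 7 and 6. In sh-Lin41, 3 were higher and 10 lower, against 26.9% and 27.3% of all genes. Between the knockdowns, 13 were higher in sh-Pfkp and 3 lower, against 27.4% and 27.8% of all genes. The summed hnRNP level was 13554 ± 10.8 CPM in sh-ctrl, 14326 ± 247 in sh-Pfkp and 12596 ± 115 in sh-Lin41 (SD, n = 3). Strand was not stated for the counting, so reads of overlapping genes cannot be told apart: 29.1% of the exon bases of Hnrnpab overlap Phykpl on the opposite strand, and 14.7% of those of Hnrnpm overlap March2 on the same strand. For Hnrnpf the largest such overlap was 13.5%, on the opposite strand. In other families it was 15.6% for Srsf2, with Mettl23, and 9.22% for Ptbp1, both on the opposite strand. Several other members overlap another gene as well.

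Of the 3 polypyrimidine tract binding protein genes, Ptbp1 and Ptbp2 were lower in sh-Lin41. Ptbp1 holds back neuronal exons in stem cells and other non-neuronal cells, and one of its known targets is an exon of Ptbp2, its neuronal paralogue. Ptbp1 had 871, 881 and 886 CPM in sh-ctrl, 861, 825 and 849.8 in sh-Pfkp and 685, 683 and 682 in sh-Lin41. The sh-Lin41 libraries lay well below the rest, at -0.36 (SE 0.0176, adjusted p = 8.51e-18), whereas in sh-Pfkp it was -0.06 (SE 0.0174, adjusted p = 0.00578), a call lost without sh-Pfkp replicate 2 (adjusted p = 0.0864). Ptbp2 had 51.9, 54.7 and 57.1 CPM in sh-ctrl, 67.3, 65.7 and 64.8 in sh-Pfkp and 40.0, 42.7 and 37.7 in sh-Lin41. It was highest in sh-Pfkp (0.27, SE 0.0453, adjusted p = 5.84e-06) and lowest in sh-Lin41 (-0.44, SE 0.0486, adjusted p = 3.19e-09), without overlap, and the knockdowns differed by 0.71 (SE 0.0466, adjusted p = 1.93e-14) in edgeR's test. In sh-Lin41 both paralogues were thus below sh-ctrl. Ptbp3 had 263, 287 and 263 CPM in sh-ctrl, 274, 274 and 276 in sh-Pfkp and 259, 279 and 266 in sh-Lin41. Its groups overlapped in all 3 comparisons, with log2 fold changes of 0.02, -0.01 and 0.04.

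Of the 4 tested CELF genes, whose proteins bind GU-rich RNA, 3 were lower and 1 higher in sh-Pfkp, or 3 and 0 with total counts only, against 28.3% of all genes in each direction. Celf5, best known from brain, had 31.3, 32.9 and 30.1 CPM in sh-ctrl, 19.9, 18.6 and 17.9 in sh-Pfkp and 31.9, 32.8 and 31.5 in sh-Lin41. Its sh-Pfkp libraries lay below all others, and sh-Lin41 overlapped sh-ctrl. The edgeR log2 fold changes were -0.74 (SE 0.0622, adjusted p = 9.45e-12) in sh-Pfkp, 0.03 (SE 0.0564, adjusted p = 0.649) in sh-Lin41 and -0.77 (SE 0.0608, adjusted p = 1.77e-12) between the knockdowns. Celf2, active in neurons, heart and T cells, had 11.3, 10.2 and 10.9 CPM in sh-ctrl, 6.90, 6.26 and 7.27 in sh-Pfkp and 9.79, 8.88 and 9.47 in sh-Lin41. It was lowest in sh-Pfkp (-0.67, SE 0.107, adjusted p = 3.21e-06), and the knockdowns differed by -0.46 (SE 0.107, adjusted p = 0.000452), while sh-Lin41 was at -0.20 (SE 0.101, adjusted p = 0.0882). Celf4 was lower in both, at -0.33 (SE 0.0591, adjusted p = 1.94e-05) and -0.18 (SE 0.0576, adjusted p = 0.0103), the latter with an adjusted p of 0.0689 without sh-ctrl replicate 3.

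Celf1, the widely expressed member that also promotes mRNA decay, had 450.1, 439 and 435 CPM in sh-ctrl, 464, 449 and 457 in sh-Pfkp and 376, 394 and 384 in sh-Lin41. It was lower in sh-Lin41 without overlap (-0.20, SE 0.0212, adjusted p = 1.94e-09). In sh-Pfkp its libraries overlapped those of sh-ctrl, and its call there (0.05, SE 0.0211, adjusted p = 0.0455) was lost in 4 of 9 fits without a library (adjusted p up to 0.135) and with total counts only (adjusted p = 0.956). Neuronal marker transcripts also differed between these groups: 9 markers summed to 412 to 419 CPM in sh-ctrl, 489 to 506 in sh-Pfkp and 377 to 381 in sh-Lin41. Of the 8 tested, 2 were higher and 4 lower in sh-Pfkp, against 28.3% of all genes each way. In sh-Lin41, 1 was higher and 4 lower, against 26.9% and 27.3% of all genes. Dcx, a defining marker of young neurons, had 1 count in sh-Pfkp replicate 2 and 0 in the other libraries. The part of such cells in the CELF values was not tested.

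Rbfox2 was the RBFOX gene with a measurable level, and it changed little. It had 153, 151 and 150.4 CPM in sh-ctrl, 156, 159 and 159 in sh-Pfkp and 164, 161 and 155 in sh-Lin41. Both knockdowns lay above sh-ctrl without overlap, by 0.06 (SE 0.0277, adjusted p = 0.0505) in sh-Pfkp and 0.08 (SE 0.0274, adjusted p = 0.0124) in sh-Lin41, where the adjusted p was 0.0648 without sh-Lin41 replicate 1. With limma on FPKM these differences turned to -0.0029 and -0.019, and the sh-Pfkp difference passed the threshold in 4 of 9 fits without a library (adjusted p = 0.0299 to 0.101). RBFOX proteins are prominent in neurons and striated muscle. The 9 muscle markers summed to 115 to 123 CPM in sh-ctrl, 203 to 207 in sh-Pfkp and 113 to 118 in sh-Lin41. These sums rested on few genes: 5 of the 9 were under 1 CPM in every group. At least 10 CPM was reached by 1 marker in sh-ctrl and 2 in each knockdown. Of the 4 tested, 3 were higher and 1 lower in sh-Pfkp, against 28.3% of all genes each way. In sh-Lin41, 1 was higher and 1 lower, against 26.9% and 27.3% of all genes. The part of these marker differences in the Rbfox2 level was not tested.

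Of the KHDRBS genes, Khdrbs1 encodes Sam68, a signalling-responsive splicing factor, and had 285, 277 and 281 CPM in sh-ctrl, 300.3, 294 and 299.8 in sh-Pfkp and 265, 265 and 262 in sh-Lin41. The groups did not overlap: it was highest in sh-Pfkp (0.08, SE 0.0219, adjusted p = 0.00174, not called with total counts only, adjusted p = 0.173) and lowest in sh-Lin41 (-0.09, SE 0.0221, adjusted p = 0.000911). Khdrbs3 had 23.7, 25.4 and 22.7 CPM in sh-ctrl, 22.7, 20.5 and 20.4 in sh-Pfkp and 21.04, 20.6 and 19.5 in sh-Lin41. Both knockdowns lay below sh-ctrl, at -0.17 (SE 0.0682, adjusted p = 0.0302) in sh-Pfkp and -0.23 (SE 0.068, adjusted p = 0.0057) in sh-Lin41, and they overlapped each other. The sh-Pfkp call of Khdrbs3 was lost in 4 of 9 fits without a library, with an adjusted p of up to 0.154.

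The wider splicing machinery was examined with 5 further lists, whose counts are read against the same shares of all genes: 28.3% higher and 28.3% lower in sh-Pfkp, 26.9% and 27.3% in sh-Lin41, and 27.4% and 27.8% between the knockdowns. The core spliceosome list had 13 of 42 genes higher and 9 lower in sh-Pfkp, or 9 and 13 with total counts only, which lies near the share of all genes, and 3 higher and 23 lower in sh-Lin41 (median -0.09). Between the knockdowns 28 of 42 were higher in sh-Pfkp and 2 lower, or 23 and 3 with total counts only and 19 and 1 with limma on FPKM. In sh-Pfkp the largest called differences were in Slu7, a factor of the final splicing step (0.38, SE 0.0473, adjusted p = 3.13e-08), Prpf4, a tri-snRNP protein (0.35, SE 0.0309, adjusted p = 2.84e-11), and Dhx15, a helicase that takes spliceosomes apart (0.30, SE 0.0191, adjusted p = 1.02e-14). In sh-Lin41 they were in the snRNP genes Snrpa1 (-0.71, SE 0.0308, adjusted p = 5.75e-19) and Snrnp200 (-0.36, SE 0.02, adjusted p = 3.68e-16) and in Sf3b1, which binds near the branch point (-0.48, SE 0.0192, adjusted p = 8.3e-20). Those 3 were lower in sh-Pfkp as well, at -0.13, -0.22 and -0.23.

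Phosphorylation by dedicated kinases controls where SR proteins reside and how they act in splicing. Of the kinase and nuclear import genes, 12 were tested, with 5 higher and 6 lower in sh-Pfkp and 2 higher and 5 lower in sh-Lin41, against 28.3% of all genes each way in sh-Pfkp and 26.9% and 27.3% in sh-Lin41. Clk1, a nuclear kinase that releases SR proteins from speckles, had 56.2, 60.9 and 58.2 CPM in sh-ctrl, 96.9, 97.0 and 95.4 in sh-Pfkp and 79.8, 80.2 and 77.9 in sh-Lin41. It shared the order of groups seen for Srsf3 and Srsf7, at 0.72 (SE 0.0371, adjusted p = 4.52e-17) and 0.44 (SE 0.0379, adjusted p = 1.25e-11) by edgeR. Clk3 had 54.6, 53.6 and 63.2 CPM in sh-ctrl, 37.8, 32.8 and 38.0 in sh-Pfkp and 40.1, 38.4 and 41.9 in sh-Lin41. Both knockdowns lay below sh-ctrl, at -0.66 (SE 0.059, adjusted p = 3.15e-11) and -0.52 (SE 0.0574, adjusted p = 4.07e-09). Srpk2, a cytoplasmic kinase, was lower in sh-Pfkp (-0.53, SE 0.0455, adjusted p = 1.49e-11) and stood at -0.03 (SE 0.0428, adjusted p = 0.584) in sh-Lin41, and Clk2 was lower in sh-Lin41 (-0.40, SE 0.0521, adjusted p = 7.68e-08).

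Of 21 SR-related cofactors, 11 were higher and 4 lower in sh-Pfkp, against 28.3% of all genes each way. In sh-Lin41, 7 were higher and 11 lower, against 26.9% and 27.3% of all genes. Between the knockdowns 15 were higher in sh-Pfkp and 1 lower, against 27.4% and 27.8% of all genes, or 11 and 1 with limma on FPKM. In each knockdown 1 cofactor was called at least 1.5-fold lower (9.95% of all genes in sh-Pfkp, 5.66% in sh-Lin41) and 0 at least 1.5-fold higher (5.13% and 5.83%). The cofactors named here are among those with a mean of at least 1 CPM. Thrap3, an RS-rich protein of mRNA processing, was higher in both, at 0.44 (SE 0.0207, adjusted p = 4.4e-18) and 0.46 (SE 0.0206, adjusted p = 9.65e-19). In sh-Pfkp Srek1 (0.43, SE 0.036, adjusted p = 6.75e-12) and Acin1 (0.37, SE 0.0261, adjusted p = 1.16e-13) followed, and in sh-Lin41 Scaf8 (0.29, SE 0.0325, adjusted p = 4.27e-09) and Scaf4 (-0.24, SE 0.0328, adjusted p = 2.21e-07), which bind the tail of RNA polymerase. Of 17 genes of nonsense-mediated decay and the exon junction complex, which act on poison-exon transcripts, 8 were higher and 2 lower in sh-Pfkp, or 6 and 3 with total counts only, and 3 were higher and 9 lower in sh-Lin41, against the same shares of all genes. Here Smg8 (0.26, SE 0.0458, adjusted p = 1.75e-05) was higher in sh-Pfkp, and Dhx34 was lower in both, at -0.38 (SE 0.101, adjusted p = 0.00196) and -0.49 (SE 0.102, adjusted p = 0.000131). Magohb (-0.35, SE 0.13, adjusted p = 0.0233) and Eif4a3 (-0.27, SE 0.0316, adjusted p = 9.16e-09), both of the exon junction complex, were lower in sh-Lin41, though the call for Magohb was lost without sh-ctrl replicate 2 (adjusted p = 0.145) and without sh-Lin41 replicate 1 (adjusted p = 0.0749).

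Among 48 tested RNA-binding splicing regulators of other families, 21 were higher and 12 lower in sh-Pfkp, or 19 and 20 with total counts only, and 19 were higher and 20 lower in sh-Lin41, against the same 28.3% of all genes each way and 26.9% and 27.3%. Mbnl1, which drives splicing patterns of differentiated cells, had 12.1, 14.8 and 12.8 CPM in sh-ctrl, 22.6, 21.2 and 26.2 in sh-Pfkp and 34.2, 34.2 and 35.0 in sh-Lin41. All knockdown libraries lay above sh-ctrl, and here sh-Lin41 was the highest, at 0.82 (SE 0.0814, adjusted p = 3.85e-10) in sh-Pfkp, 1.39 (SE 0.0761, adjusted p = 2.29e-16) in sh-Lin41 and -0.57 (SE 0.0677, adjusted p = 1.59e-08) between them by edgeR. The neuronal Elavl3 was lower in both, at -1.53 (SE 0.0639, adjusted p = 2.17e-19) and -1.05 (SE 0.0596, adjusted p = 5.54e-16). Fubp1, which also binds single-stranded DNA, was lower in sh-Lin41 at -0.96 (SE 0.0213, adjusted p = 2.4e-26), and Rbm4 was higher in sh-Pfkp at 0.72 (SE 0.0827, adjusted p = 7.21e-09). The epithelial regulators Esrp1 (-0.40, SE 0.0406, adjusted p = 5.46e-10) and Esrp2 (-0.39, SE 0.0879, adjusted p = 0.000375) were lower in sh-Lin41. In sh-Pfkp Esrp1 stood at -0.13 (SE 0.0397, adjusted p = 0.00768), a call lost without sh-ctrl replicate 3 (adjusted p = 0.0656) or without sh-Pfkp replicate 2 (adjusted p = 0.0556), and Esrp2 at 0.15 (SE 0.0839, adjusted p = 0.14).

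**Figure D4:**
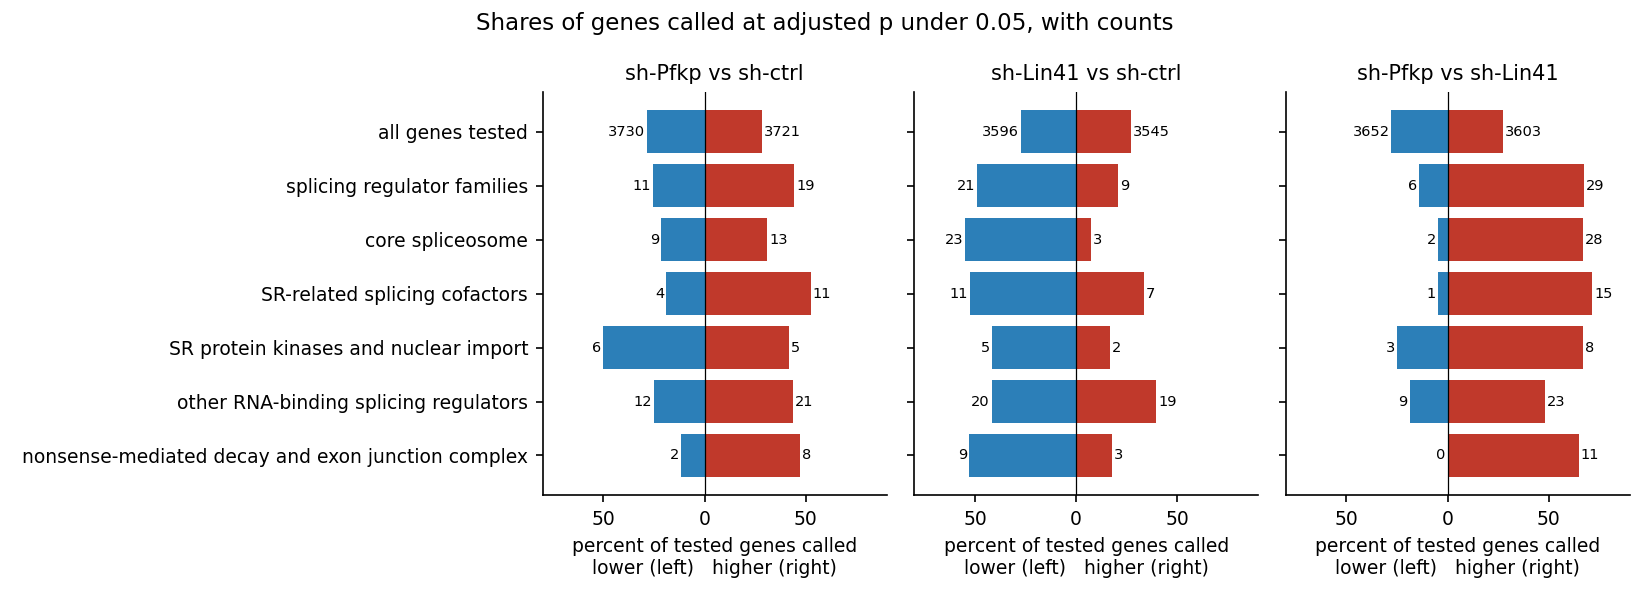
Percent of tested genes called lower (left, blue) or higher (right, red) in each comparison, with counts beside the bars, for all genes, the splicing regulator families and 5 further lists. Between the knockdowns the families have 29 genes higher in sh-Pfkp and 6 lower, and the core spliceosome list has 28 and 2. With total counts only these are 26 and 8, and 23 and 3.

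The deposited values allow a limited look at transcript structure. If both came from the same assignment of reads, the ratio of a count to its FPKM gives the transcript length assigned to a gene. It would then move when reads are assigned to transcripts of another length. Which tool gave the counts is not stated in the sources used here, so the length is only implied. Over 7379 genes with at least 5 FPKM in every library, it was called different for 2 of 40 members in sh-Pfkp (0.434% of all genes), 2 in sh-Lin41 (0.772%) and 0 between the knockdowns (0.136%), with limma. For Srsf3 the log2 implied length, relative to the median gene, was -0.24, -0.23 and -0.23 in sh-ctrl, -0.14, -0.09 and -0.11 in sh-Pfkp and -0.13, -0.15 and -0.11 in sh-Lin41. All knockdown libraries were longer than sh-ctrl, by 8.91% in sh-Pfkp (limma adjusted p = 0.0343) and 7.59% in sh-Lin41 (limma adjusted p = 0.0364). Leaving out a library kept the direction, but the adjusted p passed in 0 of 9 fits for sh-Pfkp (0.0521 to 0.116) and 2 of 9 for sh-Lin41 (0.0468 to 0.130).

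The other called shifts were smaller. The implied length of Hnrnpu was 5.63% longer in sh-Lin41 (limma adjusted p = 0.0229, and past the threshold in 4 of 9 fits without a library, 0.0201 to 0.0786), against 3.74% in sh-Pfkp (adjusted p = 0.0909, or 0.0487 with a minimum of 20 FPKM). That of Tra2a was 2.28% shorter in sh-Pfkp (limma adjusted p = 0.0343, and past the threshold in 1 of 9 fits, 0.0499 to 0.111), and this call was also lost with a minimum of 20 FPKM (adjusted p = 0.145). For Srsf7 the log2 difference was -0.02 in sh-Pfkp (limma adjusted p = 0.731) and 0.04 in sh-Lin41 (limma adjusted p = 0.332). In the authors' deposited table the log2 FPKM ratio of Srsf3 was 0.76 in sh-Pfkp and 0.64 in sh-Lin41. Both lie below the log2 fold change of its counts. Implied length is computed from counts and FPKM, so this gap follows in part from its gain and is no separate result. The ratios also differ in scaling, as only the counts were adjusted by TMM here.

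**Figure D5:**
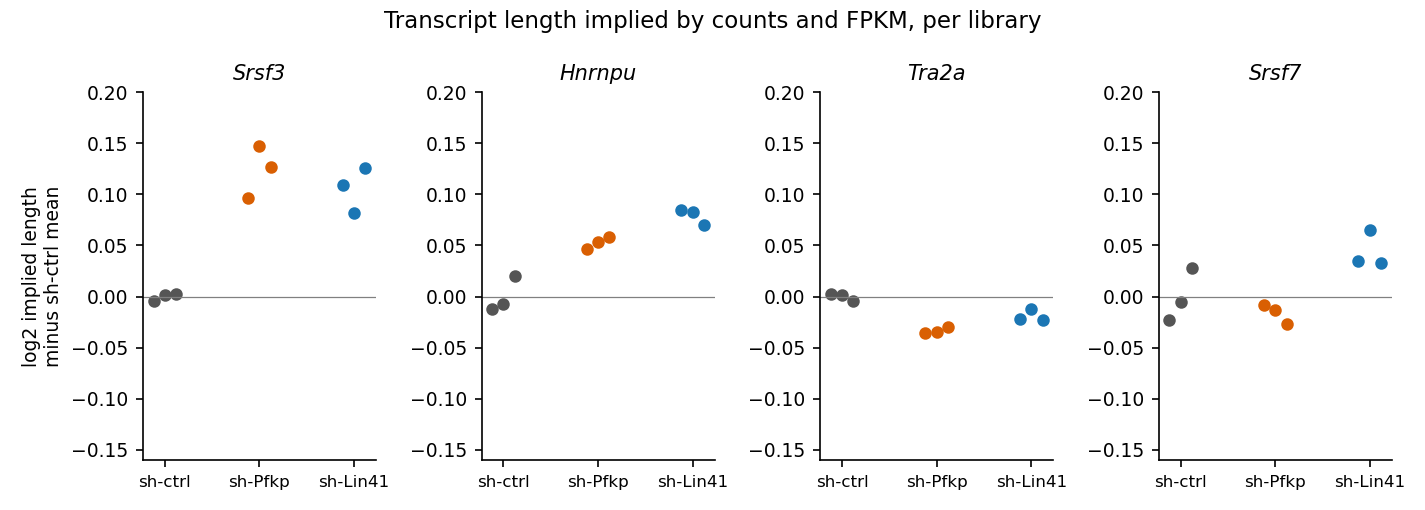
Log2 implied transcript length in each library, minus the sh-ctrl mean, for Srsf3, Hnrnpu, Tra2a and Srsf7. Srsf3 lies above its sh-ctrl values in all 6 knockdown libraries.

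In the GENCODE M21 annotation, 28 of the 43 tested members (65.1%) have a transcript labelled for nonsense-mediated decay, against 28.1% of 13122 tested protein-coding genes, and 33 (76.7%) have one with a retained intron, against 57.1%. The members also have more annotated transcripts, with a median of 9 against 5. Srsf3 has 2 decay transcripts, Srsf7 and Tra2a 1 each and Tra2b 3, whereas Srsf10 and Hnrnph1 have 0. Which of these transcripts the counts came from was not measured.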

How the data were processed

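RNA-seq of 9 libraries was used. Tools listed in the submitters' processing notes are RSEM, StringTie 1.3.1, HISAT2, Bowtie2 2.2.8 and fastp 0.18.0. The choice of build, annotation and strand was not given in the sources used here. The authors deposited whole-number read counts and FPKM values per gene and library, per the file headers, and the counts may be rounded estimates. A log2 ratio of mean FPKM, a p-value and an FDR per gene were deposited too. From these the following were computed. Counts were tested in 1 fit of 9 libraries with edgeR 4.0.16 in R 4.3.3 (filterByExpr, TMM, quasi-likelihood, 6 residual degrees of freedom, Benjamini-Hochberg adjustment over 13158 genes, threshold 0.05). SE is the absolute log2 fold change over the root of the F statistic. Steps were tested on simulated data. Total counts of 15495194 to 20607683 limit precision for genes with few counts.

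The implied length was log2 of the count divided by FPKM and library total, centred per library on the median gene and tested with limma 3.58.1. This index and the promoter motifs were chosen after the data were seen. Members and lists were chosen with earlier results of these data known. Values in every library are given for members called and at least 1.5-fold changed, the most abundant member of each family, and tested members of RBFOX, KHDRBS, TRA2 and PTBP. From each list the 3 called genes with the largest absolute log2 fold change per knockdown and a mean of at least 1 CPM are named, and Mbnl1, Esrp1 and Esrp2 in any case. One gene that this rule selects is not reported here. Other members were picked after their values were seen. Gene IDs were matched to GENCODE M21 (13144 of 13158 tested genes) for transcript types and exon overlaps, and 41 of 48 member symbols to RefSeq promoters. Alternatives were DESeq2 1.42.0, limma on log2(FPKM + 1), a replicate block, other filters and scalings, omission of each library and fits to the 6 libraries compared.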

Additional observations from a re-analysis of the deposited data

How the results depend on the processing

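With sh-Pfkp against sh-ctrl, the members' median log2 fold change moved from 0.030 to -0.018 with total counts only, -0.010 with upper-quartile scaling and -0.014 with limma on log2(FPKM + 1), where 12 members were higher. These scalings also moved the median of all genes, from -0.005 to between -0.053 and -0.039. In sh-Lin41 the members' median was -0.097 with DESeq2 and -0.101 with limma. Between the knockdowns it was 0.084 with total counts only, 0.093 with upper-quartile scaling and 0.090 with limma, 3 members were lower with DESeq2, and 2 were at least 1.5-fold changed with limma. Leaving out each library gave 7 to 12 members lower in sh-Pfkp (7 without sh-ctrl replicate 2). It gave 3 to 5 at least 1.5-fold changed in sh-Lin41 (5 without sh-ctrl replicate 1 or sh-Lin41 replicate 3), and medians of -0.098 to -0.071 in sh-Lin41 and 0.127 to 0.147 between the knockdowns. Among differences called in either fit, signs turned for Srsf1 in sh-Pfkp (-0.044 with total counts only, -0.074 with limma), Hnrnpf in sh-Pfkp (-0.0087 with total counts only, -0.00018 with upper-quartile scaling) and between the knockdowns (-0.0088 with limma), and Hnrnpd (-0.0015) and Rbfox2 (-0.019) in sh-Lin41 with limma. The cause was not tested. No call on the level of Srsf3, Srsf7, Tra2a, Tra2b, Srsf10, Hnrnph1 or Ptbp2 changed under any alternative run.

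The replicate numbers did not pair the libraries in the same way across the 3 groups. Across genes, deviations from the group means correlated at 0.034, 0.211 and 0.220 for equal numbers of sh-ctrl and sh-Pfkp. These lay above all unequal pairs of the same groups (-0.203 to -0.008). Equal numbers of sh-ctrl and sh-Lin41 gave 0.089, -0.141 and -0.122, and those of sh-Pfkp and sh-Lin41 gave -0.027, -0.239 and -0.141. Replicate 3 of sh-Lin41 correlated at 0.209 with sh-ctrl replicate 2 and at 0.259 with sh-Pfkp replicate 2. With the replicate block the members called were 19 higher and 11 lower in sh-Pfkp, 9 and 21 in sh-Lin41, and 29 and 6 between the knockdowns, the same counts as without it. Depth limits the 5 members with at most 13 counts in a library, for which no fold change is given.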
